A study of Mus musculus with 8 samples.

Results

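The ZFP36 family of the mouse comprises RNA-binding proteins that bring messenger RNAs to the decay machinery, and its members in these libraries were Zfp36 (also called TTP), Zfp36l1 and Zfp36l2. They were taken by gene name, as the 3 rows of the count table whose Ensembl identifiers carry these symbols on GRCm38, out of 43629 genes in all. The rule used names alone and no measured value, but earlier results of these data were known when it was chosen.

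Each protein of the family carries a pair of CCCH zinc fingers that bind AU-rich elements in the 3' UTR, the untranslated stretch after the stop codon. A C-terminal part of the protein recruits the CCR4-NOT complex, which shortens the poly(A) tail, after which the message is decapped and degraded. Zfp36 is known as an immediate early gene, switched on within minutes of a signal, and phosphorylation by the p38 target kinase MK2 holds the protein in a less active form. In the B lineage, Zfp36l1 and Zfp36l2 are known to act redundantly in early development, where they restrain the cell cycle, and Zfp36l1 is known for a role in the marginal zone B cell pool. Family members also have AU-rich elements in their own messages, so each may be a substrate of the family.

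RNA had been sequenced from sorted mouse spleen B cells, 4 libraries in each of 2 groups. All 8 libraries carried the allele Rosa26GFPZFP36L1. The group named GFP-ZFP36L1 also carried CD23cre/+, a Cre recombinase under control of CD23, a surface receptor of mature B cells encoded by Fcer2a, and the group named control did not. The labels thus give the Cre and the expressing cells together, no value here measures the tagged protein, and the controls also carried the allele, although the series title calls them wild type. The ages of the mice, and whether each library came from a separate animal, were not given, so the p-values speak of spread among libraries, which may be technical. Follicular B cells, the recirculating naive cells of the splenic follicle, were sorted on B220, CD23, CD21 and CD93, with all 4 listed as positive. Total counts ran from 38947758 to 51024233 per library, and at these depths counting error (the 95% Poisson interval, either side) was between 1.20% and 1.58% of each member's count.

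The sorted cells had the RNA of B cells. Levels are given as counts per 1000000 (CPM, scaled between libraries by TMM factors). The summed level of 7 B cell markers was 11077 to 11892 CPM in control libraries and 9812 to 11156 CPM in the others. By contrast, 7 T cell markers summed to at most 0.549 CPM and 4 NK cell markers to at most 0.463 CPM. A sum of 7 myeloid markers lay between 2.32 and 4.99 CPM. The myeloid sum was low but did not overlap between the groups, at 3.78 to 4.99 CPM in control libraries and 2.32 to 3.45 CPM in the others. This difference lay in the macrophage gene Adgre1, at 3.21 ± 0.574 and 1.73 ± 0.65 CPM (SD, n = 4 each). The other myeloid markers did not share it. Lyz2 was at 0.756 ± 0.186 and 0.687 ± 0.133 CPM, and Csf1r at 0.333 ± 0.118 and 0.365 ± 0.174 CPM (SD, n = 4 each). Means of S100a8, S100a9 and Cd14 were at most 0.024 CPM. The sum of 4 plasma cell markers was higher, at 10.6 to 14.4 CPM over all libraries, most of it from Sdc1. That of 5 erythroid and platelet markers was 3.36 to 12.7 CPM. Among the markers of other cells, Ncr1, Nkg7, Gzma, Ly6g and the plasma cell gene Tnfrsf17 had a count of 0 in every library. Cd93 was low, with control libraries at 10.5 ± 2.003 CPM and the others at 11.3 ± 2.86 CPM (SD, n = 4 each), although CD93 was listed as positive in the gate. In bulk RNA, fewer cells of a type and less RNA per cell cannot be told apart.

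Each of the 3 genes ends in a 3' UTR with 3 copies of the heptamer UAUUUAU, the core site bound by the family's zinc fingers, written TATTTAT in the transcript sequences and searched on the sense strand. One copy in each gene lies inside the longer nonamer TTATTTATT. These 3 sites are shown because they are the sequence feature that the members share, with the heptamer in capitals and positions on the minus strand of GRCm38, all in exon 2, the last of 2 exons, of the transcript with the longest 3' UTR.
Zfp36l1, chr12:80108166-80108195: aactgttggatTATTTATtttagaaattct
Zfp36l2, chr17:84184913-84184942: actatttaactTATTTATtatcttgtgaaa
Zfp36, chr7:28376950-28376979: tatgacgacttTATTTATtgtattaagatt

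The heptamers of Zfp36l1 began 1150, 1191 and 1405 nt after the stop codon in a 3' UTR of 1835 nt. Those of Zfp36l2 began at 822, 870 and 1056 nt of 1822 nt. Those of Zfp36 were packed within a shorter 3' UTR, at 575, 590 and 615 nt of 774 nt. Among 10978 tested genes with an annotated 3' UTR, 29.6% held at least 1 heptamer, 3.84% held 3 or more and 8.03% held the nonamer. The heptamer density per kb was higher than in 99.4% of these genes for Zfp36, 96.6% for Zfp36l1 and 96.7% for Zfp36l2. Every heptamer contains the pentamer ATTTA, of which the 3' UTRs of Zfp36l1, Zfp36l2 and Zfp36 held 9, 5 and 3. A match is a sequence description and not evidence of binding.

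**Figure D1:**
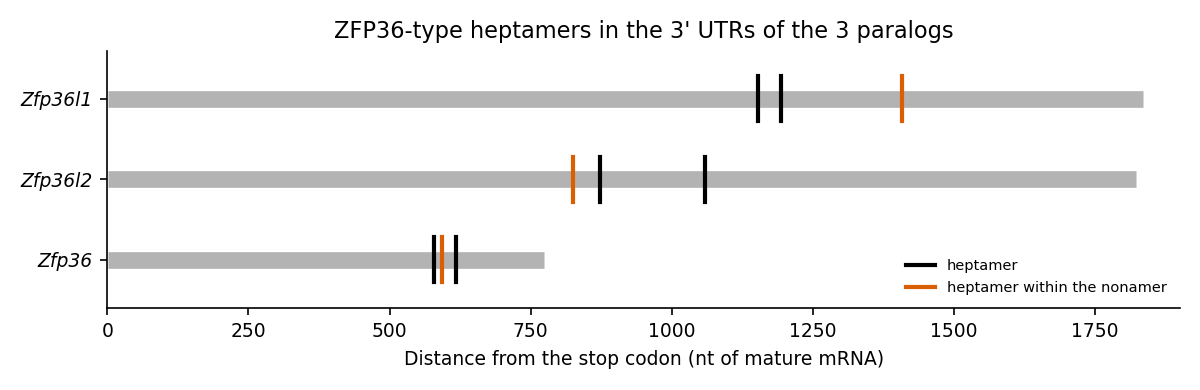
Position of each UAUUUAU heptamer in the 3' UTRs of Zfp36l1, Zfp36l2 and Zfp36, in nt of mature mRNA from the stop codon, with the 3' UTR as a grey bar and the copy inside the nonamer in orange. Each gene has 3 copies, and those of Zfp36 lie closest together, starting at 575, 590 and 615 nt of 774 nt.

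Zfp36l1, the member that the Rosa26 allele encodes, was examined in every library first. The gene (ENSMUSG00000021127) occupies chromosome 12 from 80107754 to 80113013. The controls had 599, 523, 532 and 535 CPM in replicates 1 to 4, and the libraries labelled GFP-ZFP36L1 had 471, 447, 437 and 402 CPM. All 4 labelled libraries lay below all 4 controls, with means of 439 ± 28.6 and 547 ± 35.1 CPM (SD, n = 4 each), so the labelled level was 0.803 times that of the controls. Zfp36l1 fell, with a log2 fold change of -0.32 ± 0.07 (SE; edgeR quasi-likelihood, Benjamini-Hochberg adjusted p = 0.0348 over 13035 genes). The count of Zfp36l1 thus did not rise in the libraries named for it, which are called labelled throughout. One count per gene does not separate reads of the allele from those of the endogenous gene. Whether reads of the allele were counted under this gene at all was not tested, so the lower count does not contradict the label. The call was lost (edgeR, adjusted p from 0.0701 to 0.105) when any library other than GFP-ZFP36L1 replicate 1 was left out.

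A gene was called at an adjusted p under 0.05. In the same fit 3.12% of the genes were called, 1.83% higher and 1.3% lower in the labelled libraries, and 11.2% of all genes tested had groups that did not overlap. Of the 3 members, 1 was called and the same 1 had groups without overlap. Gt(ROSA)26Sor, the noncoding gene at the locus of the allele, lay at 13.6 to 19.9 CPM in control libraries against 3.17 to 4.46 CPM, which separates the groups in the way their labels differ. Fcer2a, whose gene drives the Cre, was not called (edgeR, adjusted p = 0.102), with control libraries at 1459.7 ± 69.5 CPM and labelled ones at 1212 ± 116 CPM (SD, n = 4 each). Its groups did not overlap, at 1388 to 1555 CPM in control libraries and 1114 to 1358 CPM in labelled ones. The summed level of 5 follicular markers ran from 8033 to 8355 CPM in control libraries and from 6602 to 7518 CPM in labelled ones, and that of 5 marginal zone markers was 369 to 426 and 422 to 472 CPM. The part that these shifts, and the differences in the B cell sum and in Adgre1, have in the lower Zfp36l1 was not tested.

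Zfp36l2, the paralog that shares the early B cell role, was the most variable member. The gene (ENSMUSG00000045817) occupies chromosome 17 from 84183931 to 84187947. The controls had 385, 539, 499 and 489 CPM in replicates 1 to 4, and the labelled libraries had 436, 339, 397 and 408 CPM. The groups overlapped because of control replicate 1, which lay below 3 of the 4 labelled libraries, while the other controls lay above every one of them. The means were 478 ± 65.5 and 395 ± 40.7 CPM (SD, n = 4 each), a log2 fold change of -0.28 ± 0.10 (SE) that was not called (edgeR, adjusted p = 0.189). Without control replicate 1 the log2 fold change was -0.37 (edgeR, adjusted p = 0.0551). Limma voom with quality weights, which gives less weight to libraries that stand apart, called it at -0.36 (adjusted p = 0.0216).

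Zfp36, the immediate early member, differed least between the groups. The gene (ENSMUSG00000044786) occupies chromosome 7 from 28376784 to 28380253. The controls had 444, 383, 422 and 439 CPM in replicates 1 to 4, and the labelled libraries had 408, 352, 424 and 374 CPM. The groups overlapped over most of their range. The means of 422 ± 27.4 and 389 ± 32.3 CPM (SD, n = 4 each) gave a log2 fold change of -0.12 ± 0.07 (SE; edgeR, adjusted p = 0.464). No alternative called it.

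**Figure D2:**
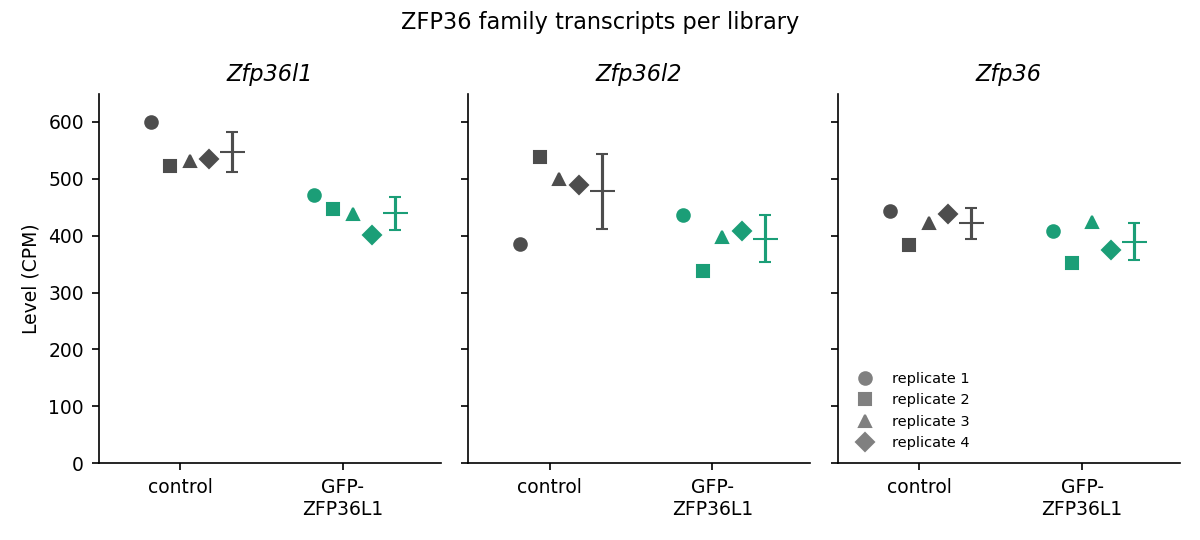
Level of Zfp36l1, Zfp36l2 and Zfp36 in CPM in each library, with marker shape for the replicate and the bar for the mean ± SD of 4 libraries. The labelled libraries of Zfp36l1 (402 to 471 CPM) sit below all controls (523 to 599 CPM), while control replicate 1 is the lowest control of Zfp36l2, at 385 CPM.

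The authors' deposited table gave the same order of the 3 differences, with log2 fold changes of -0.29 for Zfp36l1, -0.23 for Zfp36l2 and -0.10 for Zfp36. The adjusted p-values in the authors' deposited table were 0.000436, 0.109 and 0.488. Mean signals in the authors' deposited table were 1.11 times those of the deposited normalized values for each member, as for 10333 genes of mean signal above 100 (median ratio 1.11), and the cause was not tested. The table describes the same comparison, so it is no independent support.

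By level, all 3 members were among the more abundant mRNAs of these cells. Per kb of exon, Zfp36l1 stood above 98.1% of 12926 tested genes with a known length, Zfp36l2 above 97.3% and Zfp36 above 97.2%. In the controls the levels per length were 183 ± 11.7 CPM per kb for Zfp36l1, 135 ± 18.6 CPM per kb for Zfp36l2 and 122 ± 7.89 CPM per kb for Zfp36 (SD, n = 4 each). Zfp36l1 was the highest of the family in 8 of 8 libraries. Zfp36l2 and Zfp36, next to each other in this order, did not differ beyond their spread: Zfp36l2 was above Zfp36 in 5 of 8 libraries, 3 of them controls, and the ratio of the pair ran from 0.854 to 1.38.

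In the labelled libraries the levels per length were 147 ± 9.57 CPM per kb for Zfp36l1, 112 ± 11.5 CPM per kb for Zfp36l2 and 112 ± 9.30 CPM per kb for Zfp36 (SD, n = 4 each). As shares of the family's summed level per length, Zfp36l1 made up 41.6 ± 2.82% in the controls and 39.6 ± 2.43% in the labelled libraries, Zfp36l2 30.8 ± 4.18% and 30.1 ± 1.98%, and Zfp36 27.6 ± 1.75% and 30.2 ± 1.27% (SD, n = 4 each). Shares of Zfp36l1 and Zfp36l2 overlapped between the groups. Those of Zfp36 did not, but the highest control share, 29.23%, and the lowest labelled share, 29.25%, were nearly equal. With the longest annotated transcript as the length, the control share of Zfp36 was 32.2% and it ranked above Zfp36l2, at 28.8%, so the order of this pair also depends on the length used.

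The summed level per length was almost the same in all controls, at 437, 438, 441 and 444 CPM per kb in replicates 1 to 4, and was 398, 347, 381 and 358 CPM per kb in the labelled libraries. The controls thus had an SD of 2.84 CPM per kb around a mean of 440.0 CPM per kb, where the root of the summed variances of the 3 members, the SD they would give if they varied independently, was 23.3 CPM per kb. Without control replicate 1 that root was 11.3 CPM per kb and the SD of the sum 2.79 CPM per kb, and without control replicate 4 the SD of the sum was 1.80 CPM per kb. Control replicate 1 had the highest Zfp36l1 of all libraries, at 200.5 CPM per kb, and the lowest Zfp36l2 of the controls, at 109 CPM per kb. The labelled libraries had no such pattern, with an SD of the sum of 23.1 CPM per kb against 17.6 CPM per kb from the members. These sums are described without a test, and 4 libraries give a spread only coarsely.

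**Figure D3:**
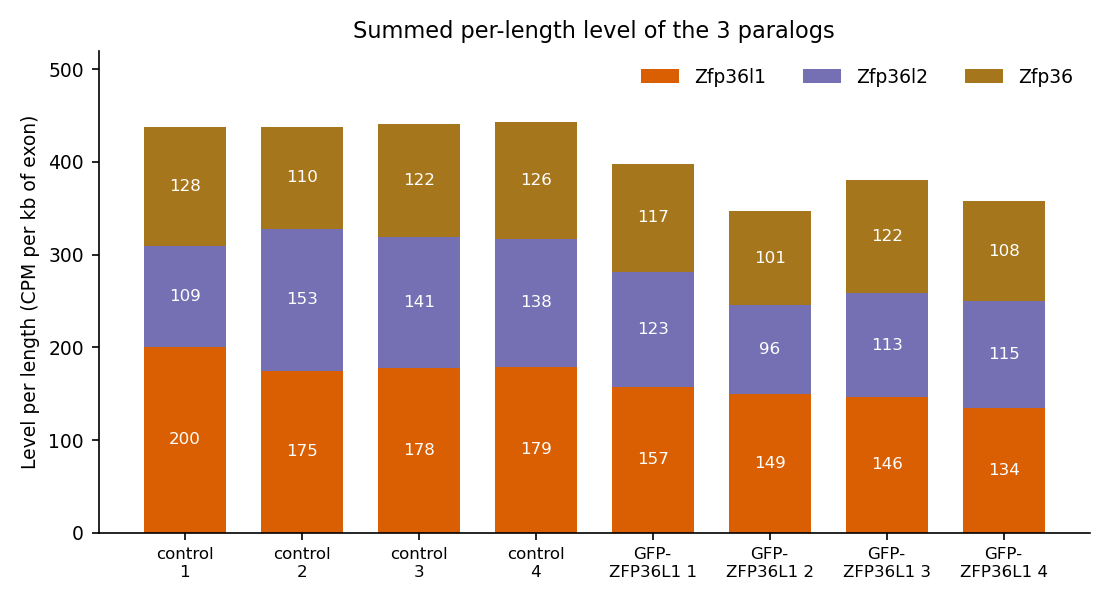
Level per length (CPM per kb of exon) of Zfp36l1, Zfp36l2 and Zfp36, stacked for each of the 8 libraries. The control stacks end between 437 and 444 CPM per kb although their parts differ, and the labelled stacks end between 347 and 398 CPM per kb.

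Whether one paralog changed more than another was asked from the log2 ratio of their CPM in each library, compared between the groups by an exact permutation test over 70 assignments, whose smallest two-sided p is 0.0286. The ratio of Zfp36l1 to Zfp36 was 0.43, 0.45, 0.33 and 0.29 in the controls and 0.21, 0.34, 0.05 and 0.10 in the labelled libraries. It was lower by a mean of 0.20 in the labelled libraries, with 1 of them inside the control range, and the exact permutation p was 0.0857, or 0.257 after Benjamini-Hochberg adjustment over the 3 ratios. The ratio of Zfp36l1 to Zfp36l2 had a mean difference of -0.05 (exact permutation p = 0.857, adjusted 0.857), and that of Zfp36l2 to Zfp36 one of -0.15 (exact permutation p = 0.343, adjusted 0.514). None of the 3 ratios passed. If only 1 ratio differed, its adjusted p could not go below 0.0857 in this design. A paralog that responded alone would move both of its ratios, and for that case this limit does not hold. With so few libraries, the lack of a passing ratio does not show that the paralogs responded alike. After removal of a linear trend with the number in the sample title, the ratio of Zfp36l1 to Zfp36 reached an exact permutation p of 0.0286 at a difference of -0.17, and so it did, at -0.26, without GFP-ZFP36L1 replicate 2. The ratio of Zfp36l2 to Zfp36 reached the same exact permutation p without control replicate 1, at -0.28.

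Within groups, no pair of members had a relation that passed its test. The within-group SD of log2 CPM was 0.09 for Zfp36l1, 0.11 for Zfp36 and 0.18 for Zfp36l2, against a median of 0.09 over 2312 genes of at least 100 CPM, of which 92.4% had a smaller SD than Zfp36l2. With the group mean removed, Zfp36l1 and Zfp36l2 lay on the same side of their means in 1 of 8 libraries. Their Pearson r was -0.52 (exact permutation p = 0.222, adjusted 0.5235) and Spearman's rho -0.55 (exact permutation p = 0.201, adjusted 0.391), over orders permuted within groups and adjusted over 3 pairs. The relation rested on single libraries. Without control replicate 1 it was 0.0055, without GFP-ZFP36L1 replicate 1 it was -0.91 (exact permutation p = 0.0069), and without both, the 2 libraries farthest from the median of Zfp36l1, it was -0.74 (exact permutation p = 0.333).

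Zfp36l1 and Zfp36 had a Pearson r of 0.43 (exact permutation p = 0.349, adjusted 0.5235) and a Spearman's rho of 0.50 (exact permutation p = 0.26, adjusted 0.391). Without the 2 libraries farthest from the median of Zfp36l1 this r was 0.11 (exact permutation p = 0.861), so the relation did not hold without them. With the trend in title number removed it was 0.76 (exact permutation p = 0.0156). Zfp36l2 and Zfp36 had an r of -0.04 (exact permutation p = 0.938, adjusted 0.938) and a rho of -0.29 (exact permutation p = 0.5035, adjusted 0.5035), and an r of -0.57 without the 2 libraries farthest from the median of Zfp36l2 (exact permutation p = 0.278).

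**Figure D4:**
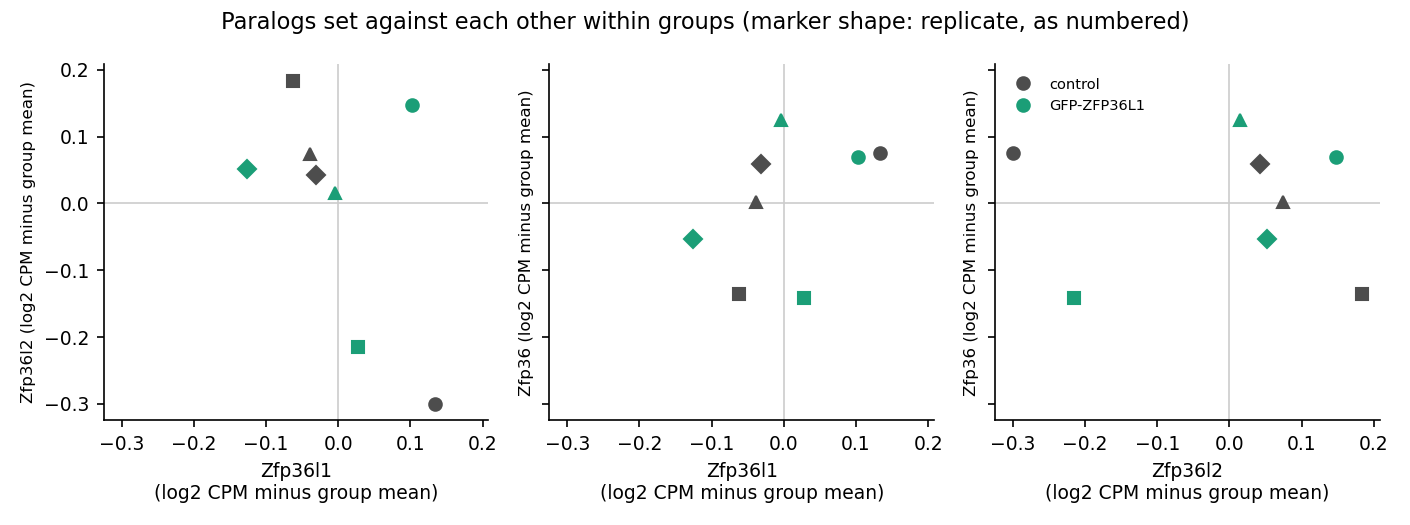
Log2 CPM minus the group mean of one paralog against another, 1 point per library, with color for the group and shape for the replicate. Zfp36l1 against Zfp36l2 slopes down (r = -0.52) with control replicate 1 at the lower right corner, and the other pairs show r of 0.43 and -0.04.

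The number in the sample titles runs from 1 to 8 and alternates between the groups, and what it stands for is not given in the labels. As a linear term beside group it was called by edgeR for 20.8% of all genes tested and for 0 of the 3 members. The slope of Zfp36l1 was -0.03 ± 0.01 log2 units per step (SE; edgeR, adjusted p = 0.0652). Zfp36l2 had a slope of 0.02 ± 0.03 and Zfp36 one of -0.00061 ± 0.01 log2 units per step (SE). With the term in the fit, Zfp36l1 stayed lower, at a log2 fold change of -0.29 (edgeR, adjusted p = 0.00295).

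**Figure D5:**
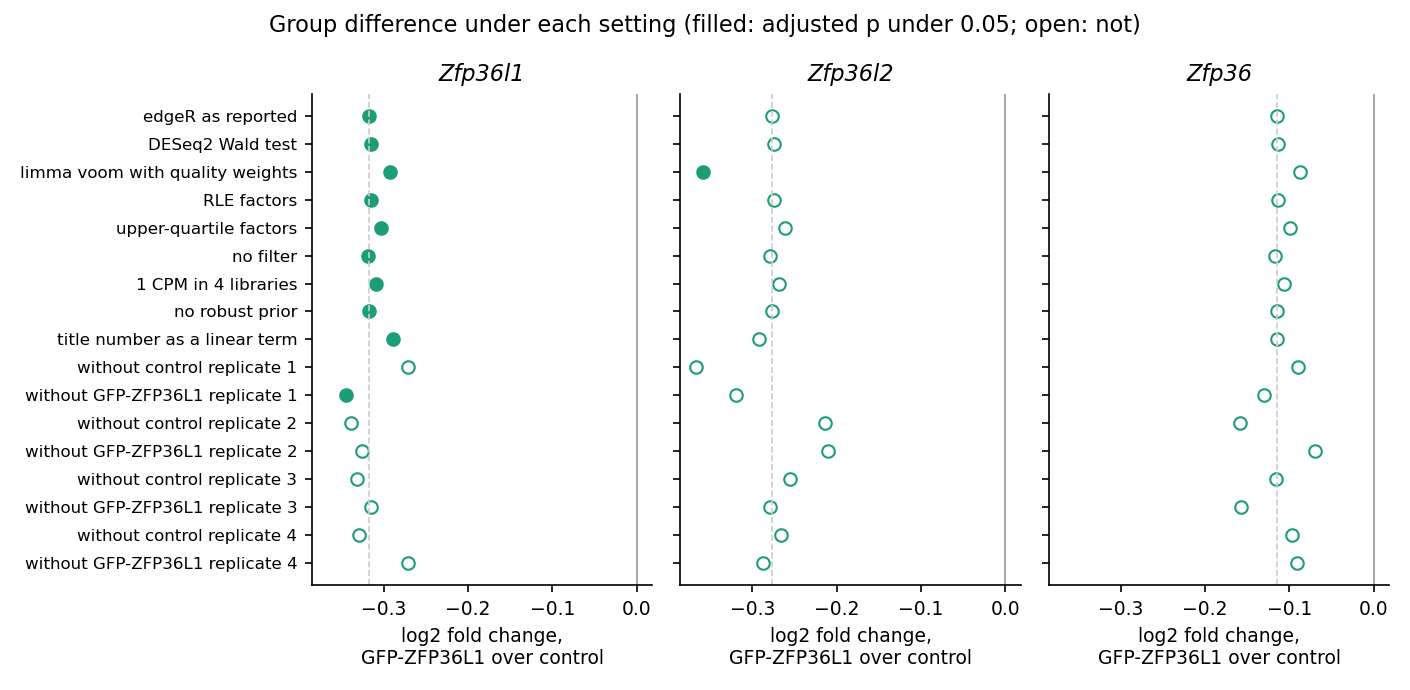
Log2 fold change of Zfp36l1, Zfp36l2 and Zfp36, labelled libraries over controls, under edgeR as reported and each of 16 alternatives, filled where the adjusted p is under 0.05. All values are below 0; Zfp36l1 runs from -0.34 to -0.27, and the Zfp36l2 value called is that of limma voom, at -0.36.

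The genes most like each member were different for the 3. Likeness was Pearson's r of log2 CPM with the group mean removed over the 8 libraries, among 6842 protein-coding genes of at least 20 CPM, given as a description since all genes share the same libraries. Nearest to Zfp36l1 were Prorsd1, Atp6v1c1, a subunit of the vacuolar proton pump, Trmt112, a partner of methyltransferases, and Abhd17a, a depalmitoylase, with r from 0.988 to 0.998. Nearest to Zfp36 were Snrnp25, a protein of the minor spliceosome, Pafah1b3, Mospd3 and Necap2, with r from 0.949 to 0.976. Nearest to Zfp36l2 were Prkacb, a catalytic subunit of protein kinase A, the flippase gene Atp11b, the transcription elongation factor gene Supt5 and the SNARE gene Vti1a, with r from 0.939 to 0.956. None of these 12 genes was called between the groups. Among the genes ranked by likeness to Zfp36l1, Zfp36 came 2747th and Zfp36l2 5091st. Of all genes tested, 28.95% had an r over 0.5 with Zfp36l1, against 11.04% with Zfp36 and 11.3% with Zfp36l2.

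Zfp36 was set beside 29 other tested immediate early genes, which signals and cell handling both induce. With Zfp36, 27 of the 29 had a positive r (50.9% of all genes tested), with a median of 0.28 (0.0098 over all genes tested). An r over 0.5 with Zfp36 was found for 10 of the 29, against 11.04% of all genes tested. The highest was Nr4a1, an orphan nuclear receptor, at 0.84, followed by the AP-1 genes Jund and Junb and the zinc finger gene Egr1 at 0.81, 0.74 and 0.71, the last 3 chosen after their values were seen. Relatives of these in the list were lower, with Fos at 0.28, Jun at 0.26, Fosb at 0.08, Egr2 at 0.25 and Egr3 at 0.26, likewise chosen. Zfp36l1 had a positive r with 16 of the 29, against 50.1% of all genes tested, and an r over 0.5 with 9, against 28.95%. Both counts were near the share of all genes, and r ran from 0.93 for Ier5 to -0.64 for Jun. Zfp36l2 had a positive r with 18, against 48.3% of all genes tested. An r over 0.5 with Zfp36l2 was found for 1, the activation marker gene Cd69, at 0.76, against 11.3% of all genes tested. Between the groups, 2 of the 29 rose (6.9%, against 1.83% of all genes tested). Rhob, a small GTPase gene, went from 13.01 ± 0.187 to 20.6 ± 4.22 CPM and the transcription factor gene Klf10 from 7.67 ± 0.963 to 10.98 ± 1.43 CPM, controls first (SD, n = 4 each). The other 27 did not pass, and 13 of the 29 (44.8%) had an unadjusted p under 0.05, against 2260 of 13035 genes tested (17.3%). Some alternatives also called members lower: DESeq2 called 2 higher and 1 lower, the fit with title number 2 and 2, the fit without GFP-ZFP36L1 replicate 1 2 and 2, and the fit without control replicate 1 1 and 1. Without control replicate 2, 3 or 4 or GFP-ZFP36L1 replicate 3, 0 were called, and without GFP-ZFP36L1 replicate 2, 1 was called higher.

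No gene of the decay machinery that the family recruits passed the test. Of 39 genes of the CCR4-NOT complex, its adaptors, the decapping enzymes and the exosome, all were tested and 0 passed in edgeR. Over all genes tested 3.12% were called, so 0 of 39 is near that share and says nothing particular of the list. At an unadjusted p under 0.05 were 4 (10.3%), against 17.3% of all genes tested. The list shares 1 gene, Btg2, with the immediate early genes. DESeq2 called 1, limma voom 1, the fit with title number 2 and the fit without GFP-ZFP36L1 replicate 1, 3. The median log2 fold change was -0.0067, the same to that rounding as over all genes tested. The smallest p belonged to Cnot6l, a deadenylase subunit, with labelled libraries at 235 ± 10.2 CPM and controls at 208 ± 8.92 CPM, and to Btg2, an antiproliferative adaptor of the complex, at 331 ± 33.5 and 389 ± 23.0 CPM (SD, n = 4 each).

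Kinases, phosphatases and 14-3-3 proteins that act on ZFP36 proteins or upstream of them gave a like result. This list shares 1 gene, Dusp1, with the immediate early genes and with the reported targets below. Of 28 tested, 0 passed in edgeR, also near the 3.12% called over all genes tested. At an unadjusted p under 0.05 were 4 (14.3%), against the same 17.3%, and the median log2 fold change was -0.01. DESeq2 called 2 and limma voom 1, the fit with title number 4 and the fit without GFP-ZFP36L1 replicate 1, 3. Mapkapk3, a kinase of the MK2 family, had a log2 fold change of 0.18 ± 0.05 and Rps6ka1, an ERK-activated kinase, 0.17 ± 0.05 (SE). Their adjusted p in edgeR were 0.0942 and 0.106.

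Of 27 other binders of AU-rich or related stability elements, such as the stabilizing factor gene Elavl1, 1 fell (3.7%) and 0 rose. Over all genes tested 1.3% fell and 1.83% rose, 3.12% in either direction, so the list's share of calls was near that of all genes. An unadjusted p under 0.05 was found for 1 of the list (3.7%), against 17.3% of all genes tested. Igf2bp3, an oncofetal mRNA-binding protein, was scarce, with labelled libraries at 0.909 ± 0.135 CPM and controls at 1.58 ± 0.307 CPM (SD, n = 4 each; edgeR, adjusted p = 0.0489). Its call was lost without control replicate 2, 3 or 4, without GFP-ZFP36L1 replicate 2, 3 or 4, with upper-quartile factors and without the robust prior. Zc3h12c, of the Regnase family, had 10.6 ± 3.36 and 8.14 ± 0.887 CPM and was not called.

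Of 34 tested messages reported as targets of the family, family members left out, 6 fell (17.6%, against 1.3% of all genes tested) and 0 rose, and 14 (41.2%) had an unadjusted p under 0.05, against 17.3%. Limma voom called 7 lower and 1 higher. The list's median log2 fold change was -0.04, against -0.0067 over all genes tested. The list was assembled with results of these data known, so its direction is not independent evidence. It also shares 6 genes with the list of immediate early genes. The 6 differed in the site that the members share: the 3' UTR of the cytokine gene Tnf held 8 heptamers, that of the kinase gene Pim1 4, that of the kinase gene Plk2 2, those of the cell cycle gene E2f2 and the transcription factor gene Irf8 1 each, and that of the cyclin gene Ccne1 0. Tnf went from 19.5 ± 2.19 CPM in control libraries to 14.3 ± 1.14 CPM (SD, n = 4 each), a log2 fold change of -0.44 ± 0.09 (SE). The count of 6 rested on single libraries: it was 0 without control replicate 3 or 4 or GFP-ZFP36L1 replicate 2 or 4, 1 without control replicate 2, 2 without control replicate 1 or GFP-ZFP36L1 replicate 3, and 8 without GFP-ZFP36L1 replicate 1. Over all genes the count of calls moved in the same runs from 407 to between 79 and 948.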

How the data were processed

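The submitters' processing notes name TopHat2 2.0.12, Trim Galore, HTSeq, DESeq2 1.10.1 and build GRCm38, and paired 100 bp reads came from a stranded mRNA kit per the labels' protocols. Whether reads were counted by strand is not stated. The authors deposited raw counts per gene, the basis of every test here. The authors also deposited a normalized signal per gene, which for counts above 100 was the raw count over 1 constant per library (largest relative departure 5e-10), used as a check alone. The deposited comparison table holds the authors' log2 fold changes, p-values and a signed fold score, and its rows for the members were copied. All 8 columns were mapped by sample title, 0 columns were left unmapped and 0 rows named no gene.

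Gene models, lengths and 3' UTRs came from GENCODE M21 (GRCm38), which named 42548 of 43629 identifiers. The counts were tested with edgeR 4.0.16 under R 4.3.3 (filterByExpr, TMM factors, robust quasi-likelihood test, group as the sole term, Benjamini-Hochberg adjustment over all genes, called under 0.05). Log2 CPM used a prior count of 2. Standard errors came from the F statistic. Exact permutation tests were two-sided and run in Python 3.11.15. Tests were checked on simulated data. Alternatives were DESeq2 1.42.0, limma 3.58.1 voom with quality weights, other scaling factors, no filter, 1 CPM in 4 libraries, no robust prior, title number as a linear term, a prior count of 10, other gene lengths and each library left out.

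Members, gene lists and tests were chosen with earlier results of these data known. Named genes were the members, Gt(ROSA)26Sor, Fcer2a, overlapping genes, called list members up to 6 or else the 2 with the smallest p, and the 4 genes most like each member.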

Additional observations from a re-analysis of the deposited data

Results flagged for a closer look

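Control replicate 1 stood apart in Zfp36l1. Its level of 599 CPM lay above the next control, at 535 CPM, by 0.85 of the range of the 4 controls, and its Zfp36l1 share of the family's level per length, 45.8%, lay above the next, 40.3%, by 0.931 of the range. The limit for 4 samples is 0.829. These 2 were found among 24 groups of 4 values examined (levels, ratios, shares and sums of the members, Gt(ROSA)26Sor and Fcer2a), and chance passes about 1 group in 20. Without this library Zfp36l1 had a log2 fold change of -0.27 (edgeR, adjusted p = 0.0701) and Zfp36l2 one of -0.37 (edgeR, adjusted p = 0.0551).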

How the results depend on the processing

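The members kept a negative log2 fold change under all 16 alternatives. With 1 library left out in turn, Zfp36l1 ran from -0.34 to -0.27, Zfp36l2 from -0.37 to -0.21 and Zfp36 from -0.16 to -0.07, and limma voom gave Zfp36l2 -0.36. The count of called genes was 882 with DESeq2, 1053 with limma voom, 1030 with the title number and 79 to 948 with 1 library left out. Called decay machinery genes numbered 1, 1 and 2 with DESeq2, limma voom and the title number (0 to 3 with 1 library left out), and called kinases and phosphatases 2, 1 and 4 (0 to 3). Other AU-rich element binders had 0 with upper-quartile factors and without the robust prior (0 to 1), target mRNAs 0 to 8, and immediate early genes 4 with the title number (0 to 4). Leaving libraries out moved the ratio difference of Zfp36l1 to Zfp36l2 from -0.13 to 0.10, that of Zfp36l1 to Zfp36 from -0.26 to -0.16 and that of Zfp36l2 to Zfp36 from -0.28 to -0.048. It moved r of Zfp36l1 and Zfp36l2 from -0.91 to 0.0055, and r of Zfp36l2 and Zfp36 from -0.58 to 0.35. With the title number removed, the first ratio difference turned to 0.0049, the second was -0.17, and r of Zfp36l1 and Zfp36 was 0.76. Control shares were 37.8% for Zfp36l1 with no length and 32.2% for Zfp36 with the longest transcript. Apart from the length used and the title number's own term, the cause was not tested. With 1 control left out, chosen after seeing the data, the SD of the summed level ran from 1.80 to 3.40 CPM per kb and the root of the summed member variances from 11.3 to 27.99 CPM per kb. No paired analysis was possible because the titles number the libraries from 1 to 8 with no number in both groups, and the replicate numbers used here were given in accession order and pair nothing.

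Depth does not limit the members, whose counting error was at most 1.58%, while Igf2bp3, Ccne1 and Plk2 lay below 6 CPM. The antisense gene Gm26669 overlaps 4967 bp of Zfp36l1 and had mean levels of 3.40 CPM in controls against 2.88 CPM in labelled libraries. The genes Gm44710 and AC132455.1, opposite Zfp36 and Zfp36l2 over 1274 and 2192 bp, were absent from the count table and could not be examined.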

Other observations

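The X-linked paralog Zfp36l3 and the processed pseudogene Zfp36l1-ps, both outside the 3 members, were close to absent. Zfp36l3 had 0 to 5 counts per library, 17 in all, and Zfp36l1-ps had 0 or 1, 3 in all.

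The spread of the summed family level was also computed with other gene lengths, in the same libraries, which adds no independent support. With the longest transcript as the length, the control sum had an SD of 3.93 CPM per kb, against 24.1 CPM per kb from the root of the members' summed variances. In CPM without length these were 14.2 and 79.2 CPM. Without control replicate 1 the values were 4.75 and 12.8 CPM per kb with the longest transcript and 8.33 and 39.2 CPM without length. In the labelled libraries the SD of the sum was above that root on each scale, at 25.1 and 18.9 CPM per kb with the longest transcript and at 78.2 and 59.3 CPM without length.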
